A study of Homo sapiens with 18 samples.

Results

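The genes described here supply cells with serine, one-carbon units and amino acids. They are 10 of the 58336 genes in the deposited count tables, and each was chosen by its symbol: PHGDH, PSAT1, PSPH, SHMT1, SHMT2, MTHFD2, MTHFD1L, ATF4, ASNS and SLC7A11. The study measured messenger RNA in TC-32, TC-71 and A673, established lines of Ewing sarcoma, after RNA interference against the EWSR1::FLI1 fusion oncogene that the lines carry. Serine synthesis was already known to depend on this fusion when the genes were chosen, so they are not a neutral set. In each line, 3 libraries came from cells transfected with siNeg, the control siRNA, and 3 from cells transfected with siFLI1. All 18 libraries shared a reverse transfection at 20 nM, with 1 siRNA per arm, and siFLI1 is directed at FLI1 sequence, which the fusion transcript contains. The column names give 48 h for TC-32 and TC-71, and no time is given for A673. TC-32 and TC-71 were grown in RPMI and A673 in DMEM. A673 differs from the others in medium and depth, and TC-71 in the counting program, so these cannot be told apart from the line in comparisons that cross them. A different time in A673, if there was one, could not be told apart from the line either. Where 3 values follow each other with no line named, they are in the order TC-32, TC-71, A673.

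Serine is made from a glycolytic intermediate by PHGDH, PSAT1 and PSPH, which act in that order. The serine hydroxymethyltransferases SHMT1 (cytosol) and SHMT2 (mitochondria) turn serine into glycine and pass its side-chain carbon to folate. MTHFD2 and MTHFD1L oxidise that carbon in mitochondria and release it as formate for the synthesis of purines and thymidylate. ATF4 is a transcription factor whose translation rises when amino acids are short, and the serine enzymes, ASNS (asparagine synthetase) and SLC7A11 (the cystine importer) are well-known genes under its control.

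Promoter sequences are shown because ATF4 works through short DNA elements, and because ATF4 and these genes are compared throughout. RefSeq promoter windows (GRCh38.p14) were found for 7 of the 10 genes, namely PHGDH, PSAT1, SHMT1, MTHFD2, MTHFD1L, ATF4 and ASNS. The 250 bases before each start were searched on both strands for TGATGNAA, the letters of a C/EBP-ATF response element, which 3.14% of 35116 human windows held. It was found before 1 of the 2 starts listed for ASNS and before 2 of the 4 listed for MTHFD1L. Those MTHFD1L windows overlap and hold the same copy. The share is per window, and these genes had several windows each. Some of these windows overlap annotated exons, with 250 of 250 bases in both ATF4 windows, 197 in that of PHGDH and 201 in that of MTHFD2. The next lines print those elements in capitals, 5′ to 3′ on the strand of the gene, from chr7:97872459-97872488 (minus strand) and chr6:150866345-150866374 (plus strand).
ASNS: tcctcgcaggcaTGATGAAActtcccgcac
MTHFD1L: ggccgccggctcTGATGCAAtcgcgccggg

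CCAAT, the letters bound by the factor NF-Y, was searched for after the sequences had been seen, and 32% of the windows held it. PHGDH, PSAT1, SHMT1, MTHFD2 and MTHFD1L held it, and ATF4 and ASNS did not. The stretches below carry it in capitals, and PSAT1 has 3 copies within 80 bases. They lie at chr1:119711849-119711878 (plus), chr9:78297005-78297084 (plus), chr17:18363611-18363640 (minus) and chr2:74198526-74198555 (plus).
PHGDH: ttgagtatttccgtCCAATcaaaaggagac
PSAT1: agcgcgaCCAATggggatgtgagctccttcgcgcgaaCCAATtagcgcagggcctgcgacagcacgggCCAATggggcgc
SHMT1: ccgctgcgccgcagCCAATagcgcgggtgc
MTHFD2: ggcatgcggcagggaCCAATgggtggcgga
A pair of GGAA units (GGAAGGAA), the unit of the repeats that the fusion binds, was in 3.06% of windows. Among these genes it was found before 1 of the 2 starts listed for ASNS, and not before the start with TGATGNAA. A match describes letters and is not evidence that a factor binds there.

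A TC-32 library held 24102487 to 33669271 counts, a TC-71 library 19685354 to 37234528 and an A673 library 114564479 to 120993595. FLI1, the siRNA's target and the gene that supplies the end of the fusion transcript, changed by -1.03, -1.47 and -2.09 (log2, siFLI1 against siNeg). With siNeg it stood at 42.8 to 47.7, 47.95 to 52.8 and 75.4 to 76.8 CPM and with siFLI1 at 21.7 to 22.6, 17.2 to 19.9 and 17.6 to 18.3 CPM, where CPM are TMM-scaled counts per 1e+06 counts. Of 7 Ewing sarcoma markers, CD99 was at 0 in the 6 TC-71 libraries and the others were detected in every line. CD99 is one of 45 genes that the tables list under both X and Y, and 44 of these are at 0 in TC-71, beside 16 in TC-32 and 15 in A673, so its 0 is not read as absence. Summed over 8 markers of blood, endothelium, epithelium and liver, CPM were at most 14.6 in any library, and CD3E, the T cell marker, was at 0 in every group but TC-71 siNeg. This sum was 3.54 to 5.53 with siNeg and 9.47 to 11.3 with siFLI1 in TC-32. It was 1.21 to 2.3 and 1.8 to 2.72 in TC-71, and 7.28 to 8.8 and 13.4 to 14.6 in A673. The 14 cell cycle markers summed to 3670 to 3740 CPM with siNeg and 391 to 426 with siFLI1 in TC-32, to 3160 to 3250 and 830 to 977 in TC-71, and to 3270 to 3290 and 1560 to 1620 in A673. They fell in every line, and their part in each result was not tested. In bulk RNA, fewer cells of a type and less RNA per cell cannot be told apart. Nothing states that replicates were separate cultures, so p-values measure the spread between these libraries, which may be technical.

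Most of these genes were lower after siFLI1. In TC-32, 8 were called lower and 1 higher, where 40.1% of 16227 tested genes were called lower, 41.3% higher and 81.4% in either direction. In TC-71, 9 were called lower and 1 higher, where 35% of 17085 genes were called lower, 36.8% higher and 71.9% either way. In A673, 8 were called lower and 2 higher, where 35.4% of 18444 genes were called lower, 35.6% higher and 71% either way. A call is an adjusted p under 0.05 in edgeR's quasi-likelihood test of siFLI1 against siNeg. Most tested genes were called in every line. The median log2 changes of the 10 genes were -1.28, -1.06 and -0.38, beside 0.022, 0.018 and -0.0066 over all genes tested. A called fall of at least 2-fold was seen in 7, 5 and 2 of them, beside 15.6%, 9.38% and 9.87% of all genes. The siRNAs did not overlap in 9, 10 and 10 of them, beside 82.6%, 73.8% and 73.6% of all genes. All 10 passed the low-count filter in each line. Genes on the opposite strand share 14.1% of the exon bases of MTHFD2, 8.97% of SLC7A11 and 8.38% of SHMT2, and whether counting used strand is not given in the sources used here.

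In every line, 7 genes were called lower: PHGDH, PSAT1, SHMT1, SHMT2, MTHFD2, ATF4 and ASNS. That held for 19% of the 14233 genes tested in all 3 lines, and the 3 lines have separate controls. PSPH and MTHFD1L were called in opposite directions in different lines, and SLC7A11 was not called lower in any.

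**Figure D1:**
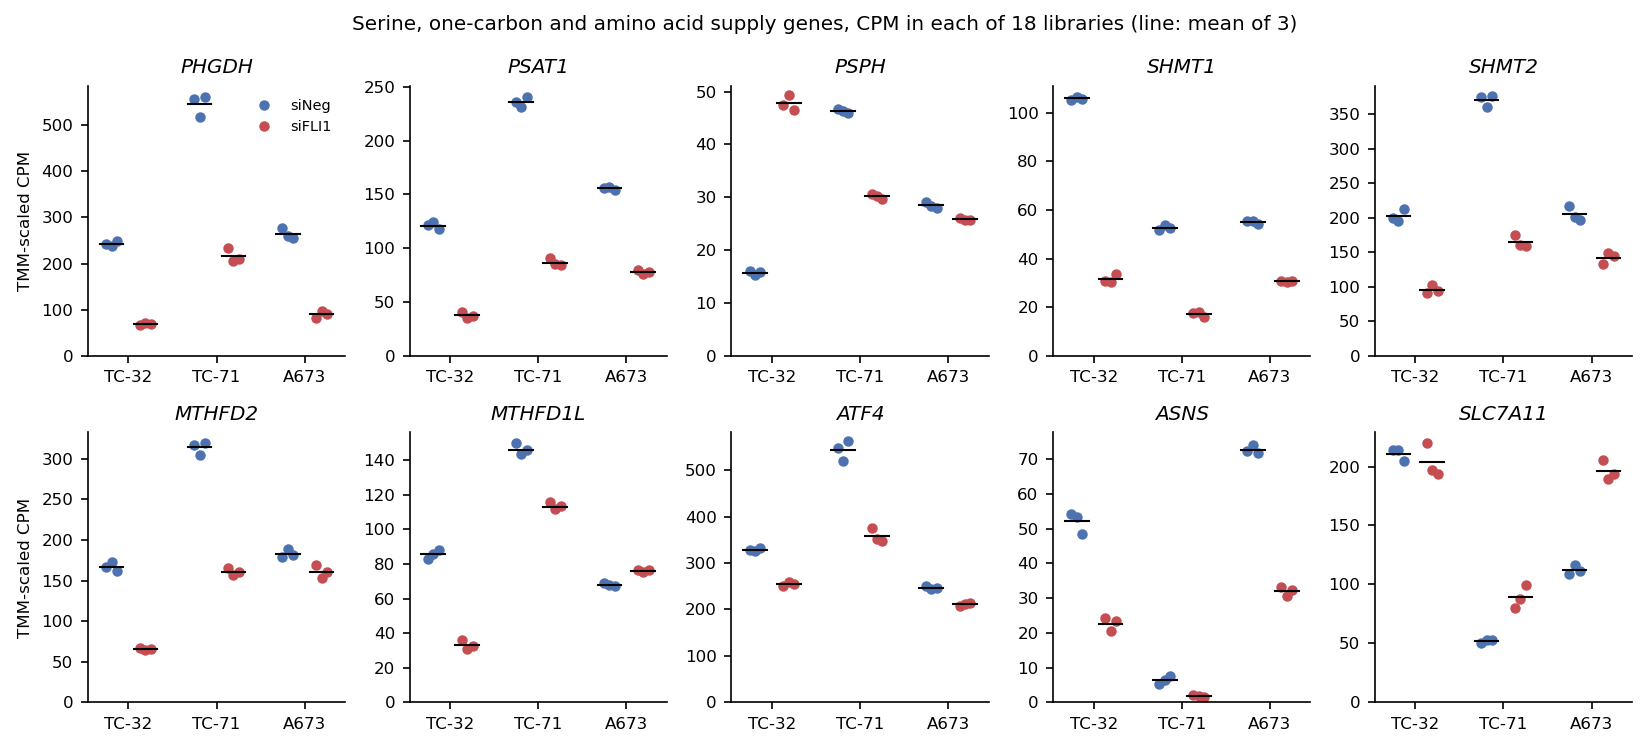
CPM of each gene in each of the 18 libraries on linear axes that start at 0, by line and siRNA, with a point for each library and a line for the mean of 3. PHGDH and PSAT1 sit lower with siFLI1 in all 3 lines, PSPH sits higher with siFLI1 in TC-32 only, and SLC7A11 overlaps between siRNAs in TC-32.

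PHGDH catalyses the first step of serine synthesis. In TC-32 it stood at 242, 237 and 249.1 CPM with siNeg and at 66.4, 70.4 and 70.0 CPM with siFLI1. In TC-71 it was 556, 518 and 560 CPM against 234, 206 and 209 CPM. Every siFLI1 library was below every siNeg library in both lines. In A673 it was 277, 260 and 255 CPM against 82.4, 97.4 and 90.03 CPM, again without overlap. The fall was 3.52-fold in TC-32 (log2 -1.82, SE 0.0459, adjusted p = 2.55e-21), 2.52-fold in TC-71 (-1.33, SE 0.0475, adjusted p = 6.06e-20) and 2.94-fold in A673 (-1.55, SE 0.0533, adjusted p = 1.84e-13). Of the 10 genes, PHGDH had the largest fall in TC-32 and in A673. The gene lies on chromosome 1 (119648411 to 119744218, GRCh38, plus strand).

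PSAT1 is the aminotransferase of the middle step, on chromosome 9 (78297125 to 78330093, plus strand). TC-32 had 121, 124 and 117 CPM with siNeg and 40.8, 35.3 and 37.1 CPM with siFLI1. TC-71 had 236, 230.9 and 241 CPM against 90.8, 85.0 and 84.3 CPM. The libraries of each group lay close together and far from the other group. A673 had 156, 157 and 155 CPM against 80.0, 76.1 and 78.2 CPM. The log2 changes were -1.68 (SE 0.0561), -1.44 (SE 0.0454) and -1.0 (SE 0.037), with adjusted p of 7.07e-19, 6.01e-22 and 5.01e-13. PSAT1 thus kept 31.2%, 36.8% and 50% of its siNeg level.

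PSPH, the phosphatase that releases serine in the last step, behaved otherwise. TC-32 had 16.1, 15.3 and 15.9 CPM with siNeg and 47.4, 49.3 and 46.6 CPM with siFLI1. In this line every siFLI1 library was above every siNeg library, a 3.04-fold rise (log2 1.60, SE 0.065, adjusted p = 3.7e-17). TC-71 had 46.8, 46.3 and 45.9 CPM against 30.6, 30.3 and 29.7 CPM, a fall (log2 -0.62, SE 0.0586, adjusted p = 1.32e-10). A673 had 29.2, 28.3 and 28.0 CPM against 26.1, 25.8 and 25.7 CPM, where the groups were close but did not overlap (-0.14, SE 0.0432, adjusted p = 0.00882). With siFLI1, TC-32 therefore held the most PSPH of the 3 lines, and with siNeg the least, in tables quantified separately. PSPH lies on chromosome 7 (56011051 to 56051604, minus strand). Its pseudogene PSPHP1 was counted at 117 to 253 in the TC-71 libraries and at 0 in all 12 libraries of the other lines. Whether PSPH reads of TC-71 were split between the copies was not tested.

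The ratios of PHGDH and PSAT1 to PSPH were lower with siFLI1 in every line, without overlap. Per kilobase of transcript and within a library, PHGDH stood at 16.3 ± 0.341 times PSPH with siNeg and 1.53 ± 0.056 times with siFLI1 (SD, n = 3). In TC-71 this ratio went from 12.4 ± 0.552 to 7.57 ± 0.446, and in A673 from 9.80 ± 0.219 to 3.68 ± 0.33. PSAT1 was 6.89 ± 0.346 times PSPH in TC-32 with siNeg and 0.708 ± 0.0644 times with siFLI1, below PSPH in all 3 siFLI1 libraries. In TC-71 and A673 PSAT1 stayed above PSPH, at 2.57 ± 0.0728 and 2.7 ± 0.0502 times with siFLI1. PHGDH to PSAT1 overlapped between the siRNAs in TC-32, at 2.26 to 2.51 with siNeg and 1.93 to 2.36 with siFLI1. It was higher with siFLI1 in TC-71 (2.73 ± 0.071 and 2.95 ± 0.0905) and lower in A673 (2.0 ± 0.082 and 1.36 ± 0.147), without overlap.

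SHMT1, the cytosolic serine hydroxymethyltransferase on chromosome 17 (18327860 to 18363563, minus strand), fell in each line. TC-32 had 105, 106 and 106 CPM with siNeg and 30.8, 30.3 and 33.8 CPM with siFLI1. TC-71 had 51.7, 53.7 and 52.6 CPM against 17.6, 18.015 and 16.1 CPM. SHMT1 kept 29.9% and 32.7% of its siNeg level in these lines. A673 had 55.2, 55.4 and 54.4 CPM against 31.0, 30.4 and 30.9 CPM, a smaller fall. The log2 changes were -1.74, -1.62 and -0.84 (SE 0.0553, 0.0651 and 0.04, adjusted p = 2.64e-19, 2.51e-19 and 1.35e-11).

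SHMT2, the mitochondrial enzyme on chromosome 12 (57229573 to 57234935, plus strand), was the more abundant of the pair per kilobase. TC-32 had 200, 195 and 213 CPM with siNeg and 91.2, 102 and 93.3 CPM with siFLI1. TC-71 had 374, 360 and 377 CPM against 175, 161 and 159 CPM. A673 again moved least, with 218, 201 and 197 CPM against 133, 149 and 145 CPM. The log2 changes were -1.08, -1.17 and -0.53 (SE 0.0504, 0.0446 and 0.0476, adjusted p = 6.11e-16, 7.17e-20 and 4.75e-08). Per kilobase, the ratio of SHMT2 to SHMT1 was 2.25 ± 0.11 with siNeg and 3.55 ± 0.368 with siFLI1 in TC-32. In TC-71 it was 8.24 ± 0.342 and 11.2 ± 0.67, and in A673 it was 4.37 ± 0.209 and 5.43 ± 0.366. The ratio was thus higher with siFLI1 in each line, without overlap between the groups.

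MTHFD2 is the mitochondrial dehydrogenase and cyclohydrolase, highly expressed in many tumours and low in most adult tissues. TC-32 had 167, 173 and 162 CPM with siNeg and 66.6, 64.2 and 65.3 CPM with siFLI1. TC-71 had 317, 305 and 320 CPM against 166, 157 and 161 CPM. These are falls to 39.1% and 51.4% of the siNeg level. The gene lies on chromosome 2 (74186172 to 74217565, plus strand). A673 had 179, 188 and 182 CPM against 169, 153 and 161 CPM, a fall of 1.14-fold. The log2 changes were -1.36 (SE 0.0469), -0.96 (SE 0.0424) and -0.18 (SE 0.0413), with adjusted p of 1.5e-18, 2.31e-18 and 0.000866.

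MTHFD1L, on chromosome 6 (150865679 to 151101887, plus strand), makes formate in the last mitochondrial step. TC-32 had 82.6, 85.7 and 88.2 CPM with siNeg and 36.2, 30.7 and 32.3 CPM with siFLI1. TC-71 had 150, 143 and 146 CPM against 116, 111 and 113 CPM. The fall was 2.59-fold in TC-32 and 1.29-fold in TC-71 (log2 -1.37 and -0.37, SE 0.0606 and 0.0444, adjusted p = 2.07e-16 and 1.7e-08). A673 had 68.7, 67.9 and 67.0 CPM against 76.2, 75.5 and 76.7 CPM, a rise (log2 0.17, SE 0.0374, adjusted p = 0.000883). With library size alone in place of TMM scaling, this rise was 0.063 with adjusted p = 0.137 (range 1.97e-05 to 0.137 over the alternatives), while the median of all A673 genes moved from -0.0066 to -0.11. Per kilobase, the ratio of MTHFD2 to MTHFD1L was 1.54 ± 0.0816 with siNeg and 1.56 ± 0.101 with siFLI1 in TC-32, where the groups overlapped. It was 1.68 ± 0.0336 and 1.11 ± 0.0105 in TC-71, and 2.11 ± 0.0668 and 1.66 ± 0.0761 in A673, lower with siFLI1 in both lines without overlap.

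**Figure D2:**
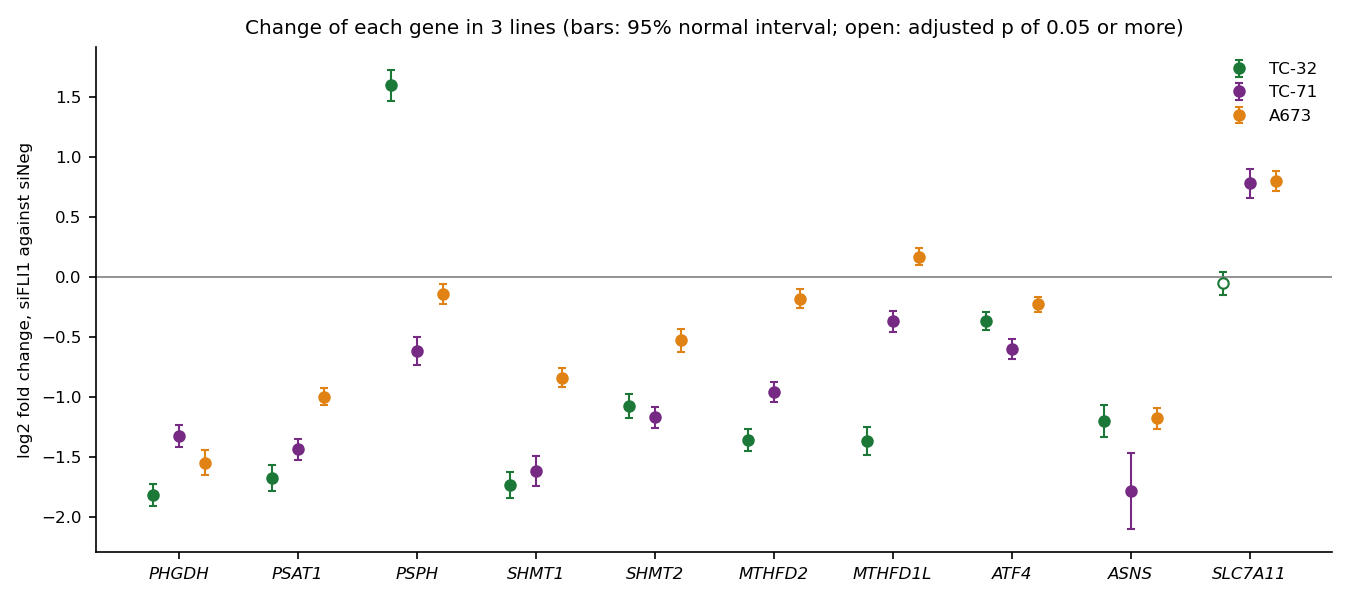
Log2 fold change of siFLI1 against siNeg for each gene and line, with bars of the 95% normal interval; open points have an adjusted p of 0.05 or more. PSPH in TC-32 is at 1.60 and SLC7A11 in A673 and TC-71 at 0.80 and 0.78, and MTHFD1L runs from -1.37 in TC-32 to 0.17 in A673.

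ATF4 fell least of the 7 genes lower in all lines, except for MTHFD2 in A673. TC-32 had 329, 326 and 333 CPM with siNeg and 250, 258 and 255 CPM with siFLI1. TC-71 had 548, 519 and 563 CPM against 375, 352 and 347 CPM. The siRNAs did not overlap, and the change was smaller than that of PHGDH in the same libraries. A673 had 250, 244.6 and 246.05 CPM against 208, 211 and 214 CPM. The falls were 1.29-, 1.52- and 1.17-fold (log2 -0.37, -0.60 and -0.23, SE 0.0391, 0.0429 and 0.0337, adjusted p = 4.9e-09, 2.2e-13 and 1.71e-05). ATF4 is controlled largely through translation and protein stability, which these RNA counts do not measure. It lies on chromosome 22 (39519695 to 39522683, plus strand).

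ASNS, on chromosome 7 (97851677 to 97872542, minus strand), makes asparagine from aspartate and glutamine. TC-32 had 54.3, 53.5 and 48.5 CPM with siNeg and 24.2, 20.6 and 23.3 CPM with siFLI1. A673 had 72.3, 74.1 and 71.9 CPM against 33.3, 30.6 and 32.4 CPM. The fall was 2.30- and 2.27-fold in these lines (log2 -1.20 and -1.18, SE 0.0687 and 0.0435, adjusted p = 3.83e-14 and 4.62e-13). TC-71 had 5.35, 6.44 and 7.49 CPM against 2.25, 1.76 and 1.64 CPM, from 127 to 216 counts with siNeg and 46 to 61 with siFLI1 (log2 -1.79, SE 0.162, adjusted p = 4.17e-11). ASNS shares 49.3% of its exon bases with a long noncoding RNA annotated on the same strand in GENCODE 44. TC-71 was counted with another program than the other lines, and what the shared bases contribute to its low ASNS counts was not tested.

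SLC7A11, on chromosome 4 (138164097 to 138242349, minus strand), imports cystine in exchange for glutamate. It was not called lower in any line. TC-32 had 214, 214 and 205 CPM with siNeg and 220, 197 and 193 CPM with siFLI1, which overlap (log2 -0.053, SE 0.048, adjusted p = 0.312). Leaving out the siFLI1 library at 220 CPM, replicate 1, gave -0.12 and adjusted p = 0.0121, and the alternatives for this value spanned -0.12 to -0.0080 with adjusted p of 0.0121 to 0.888. TC-71 had 49.98, 53.3 and 52.9 CPM against 80.4, 87.6 and 99.3 CPM. A673 had 109, 116 and 112 CPM against 205, 189 and 194 CPM. It was higher with siFLI1 in all libraries of both lines, by 1.72- and 1.75-fold (log2 0.78 and 0.80, SE 0.0625 and 0.0416, adjusted p = 1.79e-11 and 3.85e-11). SLC7A11 works as a dimer with SLC3A2, whose log2 changes were 0.019 (adjusted p = 0.713), -0.40 and -0.10. The SLC3A2 call in A673 (adjusted p = 0.0333) was lost without 5 of the 6 libraries in turn, siFLI1 replicate 2 excepted, and under the replicate block (adjusted p = 0.0847, range 0.000286 to 0.154 over the alternatives). Per kilobase the ratio of SLC7A11 to SLC3A2 was 0.29 ± 0.018 with siNeg and 0.277 ± 0.0295 with siFLI1 in TC-32. It was 0.0391 ± 0.00141 and 0.0888 ± 0.0149 in TC-71, and 0.086 ± 0.00492 and 0.162 ± 0.0153 in A673.

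In CPM per kilobase of transcript, ATF4 was the most abundant of the 10 genes with siNeg in every line (231.8 ± 2.43, 383 ± 15.7 and 174 ± 1.96), followed by PHGDH, SHMT2 and PSAT1. Among neighbours in these orders, all but ASNS and SLC7A11 in TC-32 were apart without overlap with siNeg. PSPH was last with siNeg in TC-32, at 7.97 ± 0.214, and above 6 of the others with siFLI1, at 24.2 ± 0.722. SLC7A11 stood last in A673 with siNeg (11.6 ± 0.412) and above 3 of the others with siFLI1 (20.3 ± 0.875). With siFLI1 the neighbours that overlapped were MTHFD1L and ASNS in TC-32, and in A673 MTHFD2 and PSAT1 as well as ASNS and PSPH. PHGDH stood above SHMT2 in each line with siNeg and in TC-71 with siFLI1, and below it with siFLI1 in the other lines.

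The size of the effect was then compared between lines in a model of all 18 libraries. The effect in TC-32 differed from that in A673 for 8 of the 10 genes, where 62.1% of 19610 tested genes differed. It differed from that in TC-71 for 8 as well (53.6% of genes). A673 differed from TC-71 for 9 (51.6%). PSPH had the largest difference, 1.77 for TC-32 minus A673 (SE 0.0721, adjusted p = 5.94e-21) and 2.21 for TC-32 minus TC-71 (SE 0.0761, adjusted p = 1.16e-22). MTHFD1L differed by -1.51 and -1.01 in the same pairs, and MTHFD2 by -1.15 and -0.40. A673 minus TC-71 was positive for 8 of the 9 genes that differed, with PHGDH the exception, at -0.25 (adjusted p = 0.00392). Of all 10123 genes that differed in this pair, 45.0% were positive, and the median difference over all genes tested was -0.075. For TC-32 minus TC-71, 39.0% of 10504 were positive, and the median over all genes was -0.11 (-0.037 with RLE factors). For TC-32 minus A673, 48.1% of 12179 were positive, with a median of 0.015. The differences not called for TC-32 minus A673 were those of ATF4 (-0.12, 95% normal interval -0.23 to -0.014, adjusted p = 0.0534) and ASNS (0.0043, -0.18 to 0.19). For TC-32 minus TC-71 they were SHMT1 (-0.13, -0.28 to 0.018) and SHMT2 (0.077, -0.064 to 0.22), and for A673 minus TC-71 SLC7A11 (-0.0088, -0.18 to 0.16). With only the 12 libraries of that pair, ATF4 was at -0.19 (adjusted p = 0.0012), and over the alternatives it spanned -0.19 to 0.0017 with adjusted p of 0.0012 to 1.0. Without A673 siFLI1 replicate 1 it was called (adjusted p = 0.0401), and without TC-32 siFLI1 replicate 3 so was SHMT1 for TC-32 minus TC-71 (adjusted p = 0.0465, range 0.0465 to 0.696). The fall of FLI1 also had its own size in each line, and its part in these differences was not tested.

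**Figure D3:**
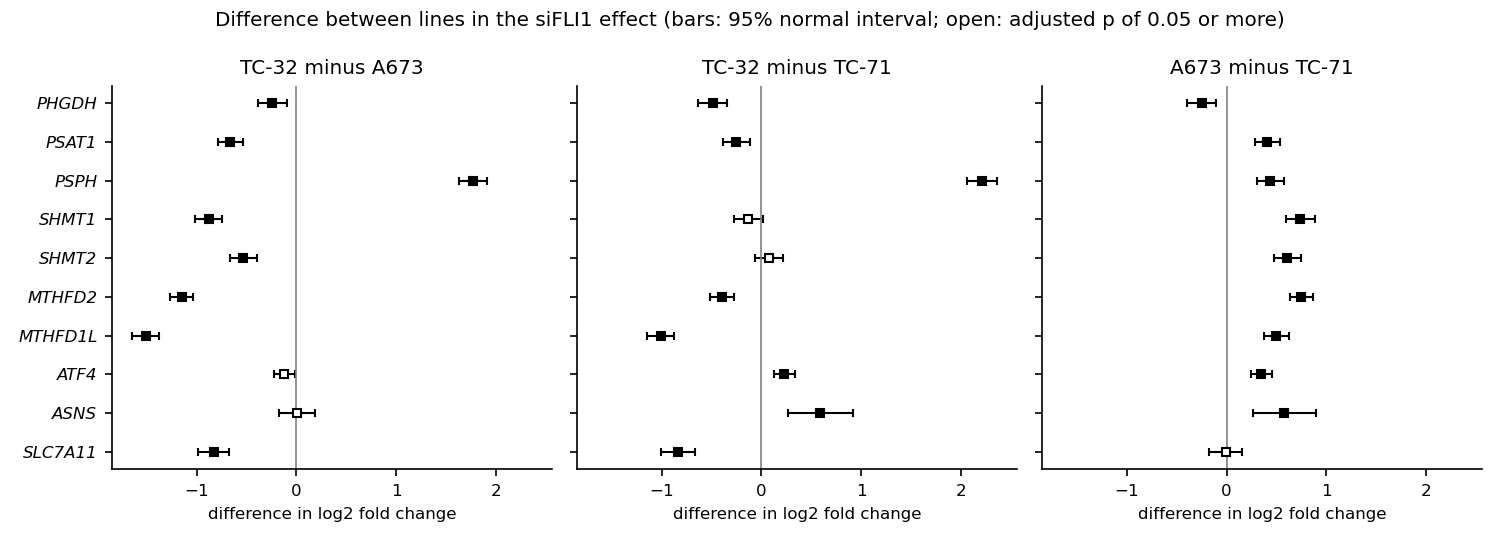
Difference of the siFLI1 effect between lines (first line minus the other) for each gene and pair, in log2 units, with bars of the 95% normal interval; open points have an adjusted p of 0.05 or more. PSPH stands at 1.77 and 2.21 in the pairs with TC-32, and MTHFD1L at -1.51 and -1.01.

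Beside these genes, 25 others of the serine, folate and methionine cycle were read from a list. In TC-32, 19 were called lower and 4 higher, in TC-71 17 of 23 tested lower and 0 higher (1 higher without siNeg replicate 1), and in A673 16 lower and 6 higher. Their medians were -0.61, -0.38 and -0.17, and 12 were lower in all lines, beside 19% of the genes tested in all 3 lines. Over all tested genes, 40.1%, 35% and 35.4% were called lower and 41.3%, 36.8% and 35.6% higher. The same shares stand beside the counts of the lists that follow. MTHFD1, the cytosolic partner enzyme, changed by -2.35, -1.24 and -0.46 on the log2 scale. TYMS, the thymidylate synthase that uses folate carbon, changed by -3.47, -1.95 and -1.20, and 47.9% of its exon bases are shared with a gene on the opposite strand. MTHFD2L, the paralogue of MTHFD2, changed by -1.02, -0.38 and -0.65. ALDH1L2, a mitochondrial folate dehydrogenase, changed by -0.26, -1.02 and -0.45, where the TC-32 call was lost with DESeq2 and without siNeg replicate 1 or siFLI1 replicate 2 (adjusted p of 0.00922 to 0.12 over the alternatives). SLC25A32, the mitochondrial folate carrier, went from -0.56 in TC-32 to 0.70 in A673, and 69.7% of its exon bases are shared on the same strand.

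The 20 cytosolic aminoacyl-tRNA synthetases, several of them known ATF4 targets, were mostly lower. In TC-32 19 were lower and 1 higher, in TC-71 17 and 3, and in A673 11 and 3 with 6 not called, with medians of -0.93, -0.54 and -0.14. The 3 higher in TC-71 became 1 without siNeg replicate 3 or without siFLI1 replicate 3. NARS1 changed by -1.89, -0.53 and -0.96, IARS1 by -1.63, -0.76 and -0.52, and AARS1 by -0.82, -0.72 and -0.81 on the log2 scale. RARS1 was opposite between TC-32 (-0.44) and A673 (0.57). In all lines, 11 of the 20 were lower, beside 19% of the genes tested in all 3 lines.

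The 22 further ATF4 targets and stress regulators split in direction: 11 higher and 9 lower in TC-32, 10 and 10 in TC-71, and 10 and 11 in A673, with medians of 0.35, -0.028 and -0.14. Of all tested genes, 41.3%, 36.8% and 35.6% were called higher and 40.1%, 35% and 35.4% lower. TRIB3 (-1.32, -0.96 and -1.43), CHAC1 (-0.68, -2.67 and -1.18) and CEBPB (-1.75, -2.37 and -1.89) were lower in all lines. VLDLR (2.85, 3.06 and 1.97) and NUPR1 (2.51, 6.05 and 2.14) were higher in all lines. In total 6 of the 22 were lower in all lines and 5 higher in all lines. Another 7 were called in opposite directions in different lines. The stress-induced factor DDIT3 was higher in TC-32 and TC-71 (0.62 and 0.46) and lower in A673 (-0.49). The 4 kinases that drive ATF4 translation differed in direction. EIF2AK3, which senses unfolded protein, was 0.12 (adjusted p = 0.146), 0.73 and 1.03, and EIF2AK4, which senses uncharged tRNA, was 0.087 (adjusted p = 0.0962, called with library size alone at 0.0189, range 0.0189 to 0.435), 0.48 and 0.65. EIF2AK2, which senses double-stranded RNA, was -0.45, -0.11 (adjusted p = 0.136) and -0.26, and EIF2AK1, which senses heme lack, was -0.13, 0.054 (adjusted p = 0.259) and 0.17; these 2 were added after their values were seen. DDIT4, opposite between TC-32 (2.28) and TC-71 (-0.61), lost its TC-71 call without siNeg replicate 1, without any 1 of the siFLI1 libraries and without a low-count filter (adjusted p up to 0.11).

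Among 22 amino acid transporters, 11 were lower and 6 higher of 20 tested in TC-32, 10 and 5 of 21 in TC-71, and 12 and 7 in A673. The shares of all tested genes were 40.1%, 35% and 35.4% lower and 41.3%, 36.8% and 35.6% higher. The medians of the transporters were -0.23, -0.1 and -0.17. SLC1A4, a carrier of serine and alanine, changed by -1.50, -2.34 and -1.23, and SLC43A1 by -1.37, -1.82 and -1.31. SLC38A2, a sodium-coupled neutral amino acid carrier induced by amino acid lack, rose by 0.99, 1.66 and 0.94. SLC7A1 was opposite between TC-71 (means of 251 CPM with siNeg and 146 with siFLI1) and A673 (126 and 215 CPM). SLC1A5 and SLC7A5, which carry glutamine and leucine, were lower in all lines (-0.74, -0.62 and -0.13, and -0.65, -0.93 and -0.39). The SLC1A5 call in A673 (adjusted p = 0.0142) was lost without siNeg replicate 1 (adjusted p = 0.0957, range 0.000209 to 0.0957), and 23.8% of its exon bases are shared with the opposite strand.

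Among 15 genes of glutathione and cystine use, 7 were higher and 7 lower in TC-32, 8 and 4 of 14 tested in TC-71, and 9 and 6 in A673, with medians of 0.10, 0.18 and 0.12. Of all tested genes, 41.3%, 36.8% and 35.6% were called higher and 40.1%, 35% and 35.4% lower. The 9 higher in A673 became 5 without siNeg replicate 3, and 5 with library size alone. HMOX1, which breaks down heme, rose by 1.45, 1.85 and 0.94. CBS and CTH, which make cysteine from homocysteine, changed by -2.20, -0.49 and -0.99 and by -0.94, -0.89 and -0.96. GCLC, the first enzyme of glutathione synthesis, was higher in TC-32 and TC-71 (0.47 and 0.73) and lower in A673 (-0.35). Only CBS and CTH of the 15 were lower in all lines, and 3 were higher in all lines. GCLC is 1 of 9 called in opposite directions in different lines.

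Of 18 enzymes of glutamine, aspartate, proline and branched-chain amino acids, 13 were lower and 3 higher in TC-32, 9 and 4 of 16 tested in TC-71, and 8 and 5 of 17 in A673, with medians of -0.43, -0.22 and -0.089. The shares of all tested genes were 40.1%, 35% and 35.4% lower and 41.3%, 36.8% and 35.6% higher. The 5 higher in A673 became 8 without siFLI1 replicate 1, and 3 with library size alone. GOT1, an aspartate aminotransferase, changed by -1.75, -0.72 and -0.98, and BCAT1, which acts on leucine and its relatives, by -1.41, -0.67 and -0.34. ALDH18A1, the first enzyme of proline synthesis, was lower in TC-32 and higher in A673 (-0.34 and 0.50).

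**Figure D4:**
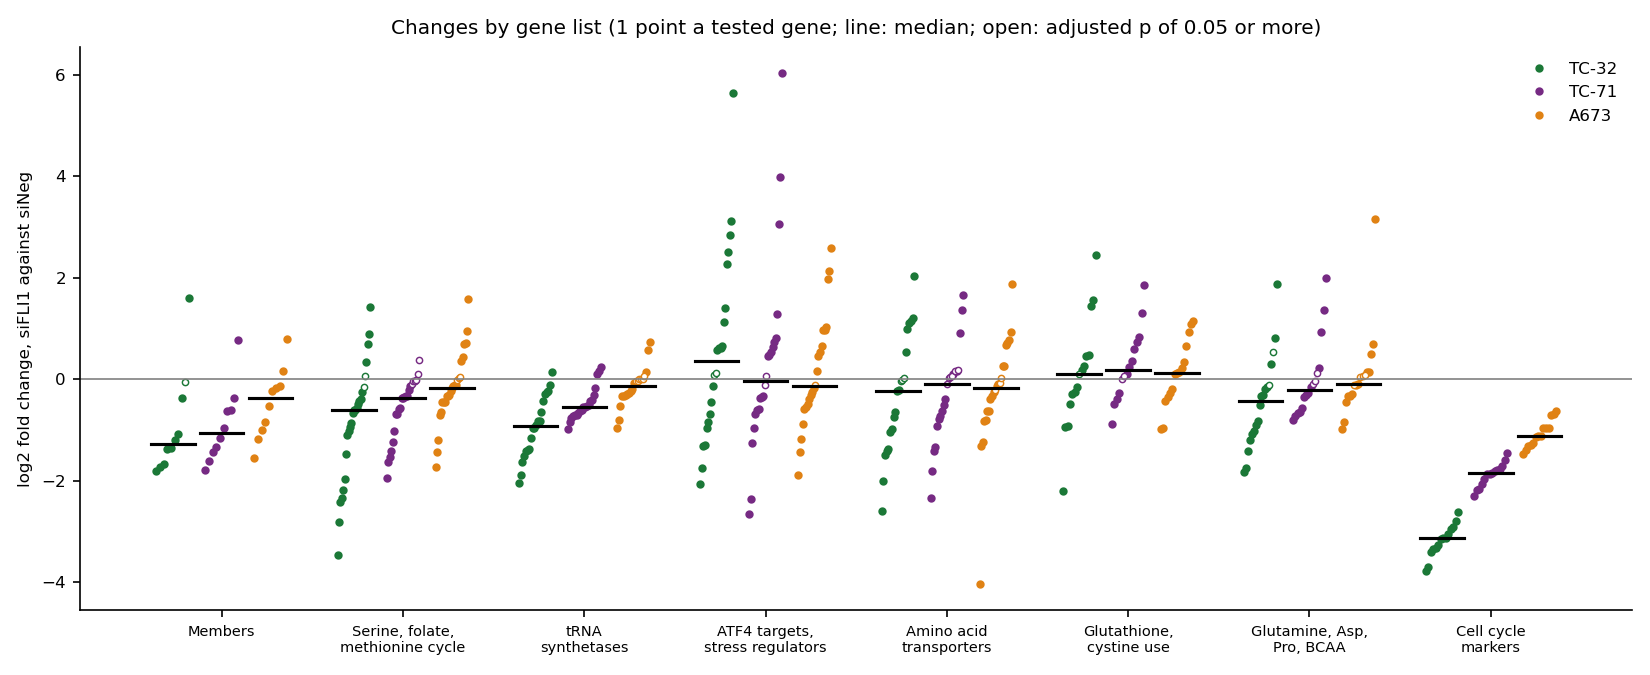
Log2 fold changes of the tested genes of each list, by line. The median of the 10 genes is -1.28, -1.06 and -0.38, the synthetases lie at -0.93, -0.54 and -0.14, and the cell cycle markers at -3.14, -1.86 and -1.12.

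All 14 cell cycle markers were lower in each line, with medians of -3.14, -1.86 and -1.12. PLK1, a mitotic kinase, changed by -3.27, -1.97 and -1.48 on the log2 scale, and FOXM1, a factor that drives mitotic genes, by -3.06, -1.87 and -1.39.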

How the data were processed

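Messenger RNA was sequenced from 18 libraries, made with a stranded kit per the labels' protocols. The deposited tables of TC-32 and A673 hold expected counts and carry RSEM in their names, and the deposited TC-71 table holds counts and carries Subread. The submitters' processing notes name cutadapt 4.4, STAR 2.7.3, featureCounts, Subread 2.0.3, limma 3.38.3 and GRCh38, with no role for each. The strand setting is not given in the sources used here. The line of the TC-32 and TC-71 columns rests on the name of the table.

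Expected counts were rounded. In R 4.3.3 each line was fitted with edgeR 4.0.16 (filterByExpr, TMM, robust quasi-likelihood fit, F-test between the siRNAs), with Benjamini-Hochberg adjustment over all genes tested and a call at adjusted p under 0.05. Differences between lines were interaction contrasts in one model of the 18 libraries. That model has its own scaling, so its differences need not equal the subtraction of the changes per line. CPM are TMM-scaled. Per-kilobase values use the Ensembl canonical transcript in GENCODE 44, where 57754 of 58336 identifiers were found. The fits were tested on simulated data with the same dispersion for all genes of a line and few genes changed. Most genes were called in the real data, so the simulation does not test the fits in that setting. Replicates of a group differed by more than counting noise in all 18 pairs.

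The members, the 9 further gene lists, the rule for named genes and the alternatives were chosen with earlier results of these data known. Named genes are the 10 members, FLI1 and 12 fixed genes. From each list they are also up to 3 genes called in the same direction in all lines with the largest smallest change, and up to 1 called in opposite directions, at a mean log2 CPM of at least 1. Some genes that this rule names are not reported here. The alternatives were limma-voom (limma 3.58.1), DESeq2 1.42.0, RLE factors and library size alone as scalings, leaving out the low-count filter, a mean count of at least 10, unrounded counts, a replicate block, each library left out, and only the 12 libraries of a pair of lines.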

Additional observations from a re-analysis of the deposited data

Results flagged for a closer look

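By the interaction test, 25 combinations of gene and pair of lines differed in their response to siFLI1. Values are the log2 change in the first line minus that in the other. PHGDH differed by -0.24 for TC-32 against A673, by -0.49 for TC-32 against TC-71 and by -0.25 for A673 against TC-71, and PSAT1 by -0.66, -0.25 and 0.41 in the same order of pairs. The difference of PHGDH between TC-32 and A673 was -0.12 (adjusted p = 0.181, range 0.000259 to 0.181 over the alternatives) with library size alone. PSPH, the last enzyme of serine synthesis, differed by 1.77, 2.21 and 0.44. SHMT1 differed by -0.88 between TC-32 and A673 and by 0.74 between A673 and TC-71, and SHMT2 by -0.53 and 0.61 in those pairs. MTHFD2 differed by -1.15, -0.40 and 0.75 and MTHFD1L by -1.51, -1.01 and 0.50 in the order of pairs given for PHGDH.

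ATF4 differed by 0.23 between TC-32 and TC-71 and by 0.35 between A673 and TC-71. ASNS differed by 0.59 and 0.58 in these pairs, on 46 to 216 counts per TC-71 library. SLC7A11 differed by -0.83 between TC-32 and A673 and by -0.84 between TC-32 and TC-71.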

How the results depend on the processing

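Of 3456 values recomputed under the alternatives, 3392 kept their direction and their side of the threshold, or, for counts, stayed within 1.5 times. With library size alone, 1 gene rather than 2 was called higher in A673, and the share of higher genes among all A673 calls was 40.9% rather than 50.1%. That scaling moved ATF4 between TC-32 and A673 to 0.0017 and SLC7A1 in TC-32 to 0.019. Without a low-count filter SLC3A2 in TC-32 was -0.0018 and SLC7A11 between A673 and TC-71 was 0.030. The latter was 0.040 with RLE factors, 0.042 with DESeq2 and 0.065 with only the 12 libraries of the pair. ASNS between TC-32 and A673 was -0.0016 with limma-voom and -0.066 with the 12 libraries. None of these main values was called, and the cause was not tested. Leaving out single libraries gave -0.015 to 0.038 for SLC3A2 and -0.060 to 0.012 for SLC7A1 in TC-32, -0.042 to 0.085 for ASNS and -0.092 to 0.076 for SLC7A11 in the pairs above. Without single libraries, 9 to 10 of the 10 genes were called in TC-32 and 10 in each other line. 

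With the replicate number as a block, 9, 10 and 10 of the genes were called in TC-32, TC-71 and A673, as without it. Over all genes the block gave 13053, 12048 and 12467 calls against 13203, 12283 and 13096. Libraries were also compared between the siRNAs of a line by each gene's deviation from its group mean. In same-numbered libraries these deviations correlated at -0.518 to 0.131 over 9 pairs, with 1 over 0.1. With different numbers they ran from -0.375 (TC-32 siNeg replicate 3, siFLI1 replicate 1) to 0.465 (A673 siNeg replicate 2, siFLI1 replicate 1). With so few libraries per group, these correlations cannot decide whether the numbers pair the libraries. Low counts limit the precision of ASNS in TC-71, at 46 to 61 counts with siFLI1, and of NUPR1 there, at 8 to 22 counts with siNeg.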
